A study of Penaeus vannamei with 11 samples.

Results

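The sex by Vibrio interaction is the difference between the responses of male and of female shrimp hemocytes to the bacterium *Vibrio parahaemolyticus*. For each gene it is the log2 response of males (Vibrio males over control males) minus the log2 response of females (Vibrio females over control females). A negative value means that the response was lower in males than in females, and a positive one that it was higher. All 11 of the 11 libraries of the series entered it, placed in their groups by the agent and the sex given in the sample labels.

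The series asked how sex relates to disease resistance in *Penaeus vannamei*, the Pacific white shrimp, and measured RNA of hemocytes spun down from hemolymph. There were 3 libraries of Vibrio males, 2 of control males (replicates 2 and 3), 3 of Vibrio females and 3 of control females. Control male replicate 1 was not analysed here. Every sample, controls included, carries the treatment label immune, which the labels do not explain, and the dose, route and time of exposure, the strain of the shrimp and their age are not stated in the labels. Nothing says whether the replicates were separate animals, pools or repeats, so the p-values measure only the spread between these samples, which may be technical. In such bulk RNA, fewer cells of a type and less RNA per cell cannot be told apart.

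Hemocytes are the circulating cells of crustacean immunity: they engulf microbes, release antimicrobial peptides, clot hemolymph and start the melanin-forming prophenoloxidase cascade. Vibrio cell walls are sensed by soluble recognition proteins and by the Toll and IMD pathways. An activated immune cell also shifts its metabolism, protein synthesis, protein breakdown and lysosomal traffic, so the gene groups below cover these functions as well as the immune effectors.

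The libraries held 39733829 to 53837438 counts, and 13210 to 15138 genes had a count in a library. The labelled cell type was checked against its markers: all 16 matched hemocyte marker genes (penaeidins, crustins, hemocyte transglutaminases and the like) had counts, and together they made up between 30128 and 70701 CPM (counts scaled to a depth of 1000000) in every library. Markers of the hepatopancreas, the digestive gland, were present at a lower level, with 448 to 893 summed CPM in Vibrio males, 1184 to 3052 in control males, 500.2 to 2968 in Vibrio females and 489 to 2022 in control females over 139 genes, 6 of which had no count in any library. That sum did not overlap between Vibrio males and control males and overlapped between the groups of females. By the mean log2 CPM of the tested markers the males overlapped too, since Vibrio male 2 (-0.11) lay above control male 2 (-0.50). By the mean log2 CPM of their 105 tested members the highest libraries were Vibrio female 1, control male 3 and control female 3. The muscle markers added up to 2644 to 4205 CPM over 71 genes, with overlap between Vibrio and control in both sexes. Their sum was above that of the hepatopancreas markers in every library but Vibrio female 1. The nervous system markers added up to 160 to 319 CPM, the cuticle markers to 5.11 to 59.4 CPM and the gonad markers to 0 to 2.95 CPM.

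No gene was called. Of 14295 genes tested with edgeR's quasi-likelihood test, 0 (0%) passed a Benjamini-Hochberg adjusted p of 0.05, the lowest being 0.74. At an unadjusted p under 0.05 there were 800 genes (5.6%), against the 715 that 5% of the tested genes comes to. Of these, 417 (2.92%) had a lower response in males and 383 (2.68%) a higher one. With other scalings the split was 515 and 295 (RLE size factors) or 410 and 394 (upper-quartile scaling). In limma on log2(FPKM + 1), a different test on 11106 genes, it was 221 and 410. DESeq2 called 27 of the 14144 genes to which it gave an adjusted p (0.191%), 15 lower in males (0.106%) and 12 higher (0.0848%). At an unadjusted p under 0.05 it had 1143 of 18005 genes (6.35%), 703 lower in males (3.9%) and 440 higher (2.44%). Of those 27 genes, 14 were at 0 in at least 2 libraries and 13 had a count in every library. The genes below are therefore described by their values in each library, and a p under 0.05 below is unadjusted unless it is called adjusted.

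The median interaction over all tested genes was -0.076 on the log2 scale, the median response was -0.028 in males and 0.053 in females, and 54.1% of the interactions lay below 0 (45.3% in limma on log2(FPKM + 1), with a median of 0.062). The median standard error (SE) of a gene's interaction was 0.58. Among the 8169 tested genes of at least 5 CPM on average, the median interaction was -0.021 and the median SE 0.41. In 65.0% of these genes the responses of the sexes had opposite signs: 2746 genes had a negative response in males and a positive one in females, and 2561 the reverse. A further 768 had positive responses that were larger in males, 687 positive responses that were larger in females, 784 negative responses that were larger in males and 623 negative responses that were larger in females. The share of opposite signs rested on single libraries, since it was 49.7% without Vibrio female 2, 52.3% without control female 1 and 76.9% without Vibrio female 3.

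**Figure D1:**
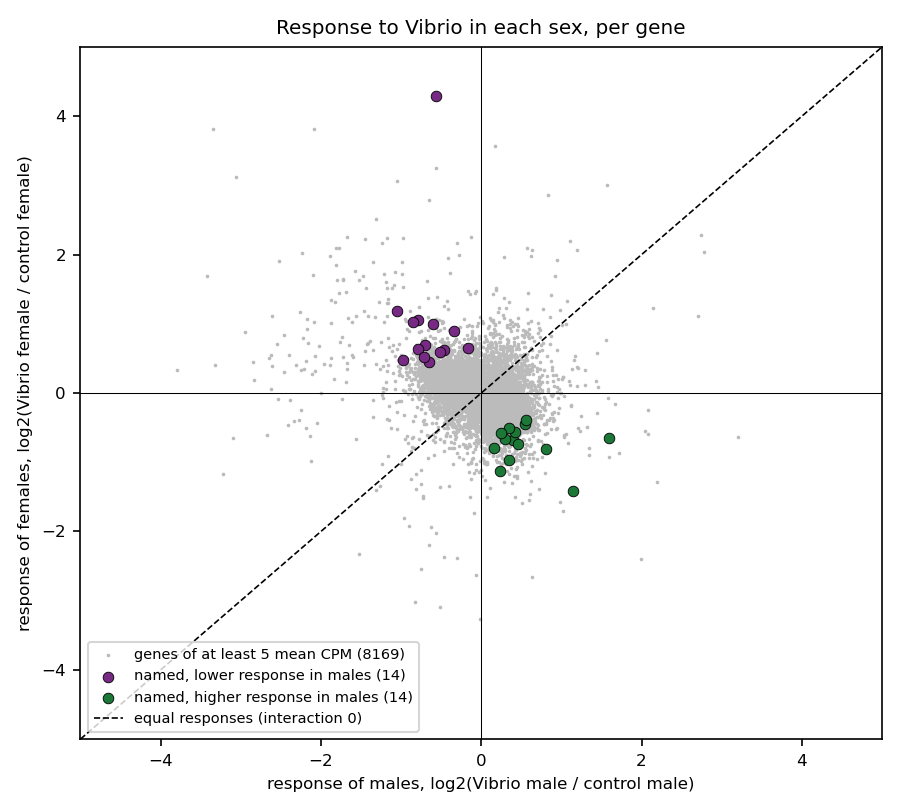
Response of each gene to Vibrio in males (x axis) and in females (y axis), both log2 of Vibrio over control, for the 8169 tested genes of at least 5 CPM on average, with the 28 named genes in colour. The 14 purple genes have negative responses in males and positive ones in females, the 14 green genes the reverse, and 3 genes lie beyond the axes.

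A stricter description counted the genes whose Vibrio and control libraries did not overlap in either sex and moved in opposite directions. There were 119 such genes with higher levels in Vibrio males and lower levels in Vibrio females than in their controls (0.832% of those tested), and 50 with lower levels in Vibrio males and higher levels in Vibrio females (0.35%). Of the 119, 62 carried a descriptive name and reached 5 FPKM (a level scaled for gene length) in some group, as did 25 of the 50. With only 2 or 3 libraries in a group, some genes fall into such an order without any response. How many would do so was not worked out, so these counts are a description and no test.

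Among the named genes with a lower response in males, the smallest p-values were those of a pyruvate kinase gene and of a proton pump subunit. Among genes with a descriptive name, 5 FPKM in some group and counts in at least 9 libraries, the 14 with the smallest p in this direction all had a negative response in males and a positive one in females, and in 9 of them no libraries of Vibrio and control overlapped in either sex. Their interactions lay between -0.82 and -4.85. They were chosen by these p-values, so their agreement in sign is a description and no test.

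Pyruvate kinase-like (LOC113828822), the enzyme of the last step of glycolysis, had 341, 366 and 381 CPM in Vibrio males and 737 and 518 CPM in control males. In females it had 579.9, 895 and 491 CPM with Vibrio and 271, 354 and 322 CPM in controls. The Vibrio libraries were all below the control libraries in males and all above them in females. Its response was -0.79 in males and 1.05 in females, giving an interaction of -1.84 (SE 0.36, DESeq2 adjusted p = 0.0034). A gene of the same name, LOC113828831, between which and the first the counting may have split reads, had 747, 829 and 1026 CPM in Vibrio males, 2165 and 877 CPM in control males, 1141, 1799.6 and 883 CPM in Vibrio females and 649, 727 and 987 CPM in control females. The males overlapped because control male 3 lay below Vibrio male 3, the females because Vibrio female 3 lay below control female 3, and the interaction was -1.51 (SE 0.54).

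The V-type proton ATPase is the pump that acidifies lysosomes and phagosomes, and its B subunit belongs to the part that binds ATP. V-type proton ATPase subunit B (LOC113821152) had 61.8, 71.2 and 49.01 CPM in Vibrio males and 97.1 and 86.5 CPM in control males. It had 78.8, 106 and 111 CPM in Vibrio females and 37.4, 57.6 and 53.7 CPM in control females. No Vibrio library overlapped a control library in either sex, and the interaction was -1.59 (SE 0.33, DESeq2 adjusted p = 0.0075). The partial gene model subunit B-like (LOC113822054) showed the same order, with 68.8, 79.2 and 51.9 CPM in Vibrio males, 118 and 98.1 CPM in control males, 82.8, 114 and 97.1 CPM in Vibrio females and 49.1, 66.6 and 65.7 CPM in control females. Its interaction was -1.39 (SE 0.32), and as both models are of subunit B they may share reads.

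Failed axon connections-like (LOC113808479), named after a Drosophila gene of axon development, had 39.04, 48.4 and 56.3 CPM in Vibrio males and 90.3 and 83.1 CPM in control males. The females had 77.3, 87.5 and 39.4 CPM with Vibrio and 34.4, 36.8 and 29.1 CPM in controls. The groups of each sex did not overlap, although Vibrio female 3 lay close to the control females, and the interaction was -1.88 (SE 0.41). Its namesake LOC113800918 had -1.21 (SE 0.63). Venom protease-like (LOC113821989), a partial model of a serine protease, was at a lower level, with 4.03, 5.09 and 7.27 CPM in Vibrio males, 11.5 and 11.04 CPM in control males, 18.1, 15.98 and 20.4 CPM in Vibrio females and 8.49, 4.25 and 11.2 CPM in control females. Its groups did not overlap in either sex, and the interaction was -2.24 (SE 0.51).

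Actin-related protein 2/3 complex subunit 5-C-like (LOC113826245) is a subunit of the complex that branches actin filaments. It had 137, 142 and 149 CPM in Vibrio males, 225 and 167 CPM in control males, 192, 226 and 183 CPM in Vibrio females and 115, 154 and 124 CPM in control females, with no overlap in either sex and an interaction of -1.07 (SE 0.27). Peroxiredoxin-6-like (LOC113823673), an enzyme that reduces peroxides, had 139, 137 and 155 CPM in Vibrio males, 258 and 193 CPM in control males, 151, 193 and 146 CPM in Vibrio females and 140.2, 109 and 109.7 CPM in control females. It too had no overlap in either sex, by a narrow margin in females, and its interaction was -1.10 (SE 0.28). The neighbour in name LOC113823675 had an interaction of -1.19 (SE 0.55), with Vibrio and control libraries overlapping in females.

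**Figure D2:**
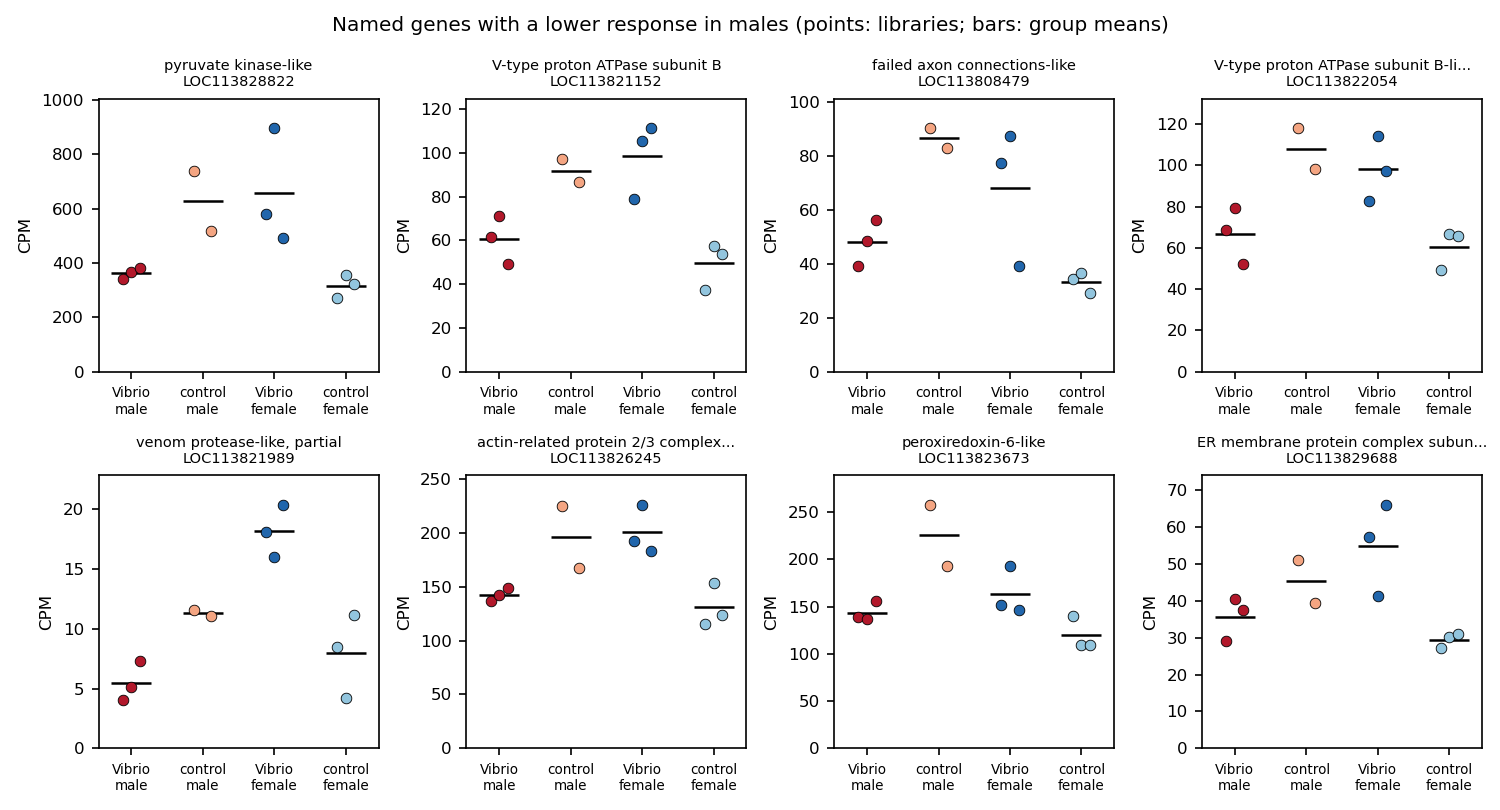
CPM in each library (points) and group means (bars) of 8 of the 14 named genes with a lower response in males. Pyruvate kinase-like runs from 341 to 381 CPM in Vibrio males, below both control males, and from 491 to 895 CPM in Vibrio females, above the 3 control females.

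The remaining named genes of this direction were spread over several functions. ER membrane protein complex subunit 7 (LOC113829688), part of a machine that inserts membrane proteins, had an interaction of -1.24 (SE 0.32), and the copies of Mediator subunit 10 (LOC113811894 and LOC113811895), which belong to the complex that links transcription factors to RNA polymerase II had -1.43, without overlap in either sex, and -0.90, with overlap in both. Interactions of -1.46 in calmodulin-like protein 4 (LOC113815685), -1.23 in electron transfer flavoprotein regulatory factor 1-like (LOC113822000) and -1.11 in mitochondrial fission 1 protein-like (LOC113811780) came with overlap in at least 1 sex. Amyloid protein-binding protein 2-like (LOC113818429) had the smallest difference of the 14, -0.82 (SE 0.24), but little spread: 22.8, 25.8 and 24.9 CPM in Vibrio males, 28.3 and 26.9 CPM in control males, 28.7, 29.04 and 36.3 CPM in Vibrio females and 19.1, 21.3 and 19.7 CPM in control females. The gene LOC113829430 of the same name had -0.47 (SE 0.28). The hemocyte transglutaminase model LOC113826241, one of the enzymes that cross-link clots, had the widest, -4.85 (SE 1.45). It stood at 0.832, 0.449 and 2.82 CPM in Vibrio males, 1.505 and 2.53 CPM in control males, 19.1, 1.21 and 21.99 CPM in Vibrio females and 0.8596, 0.2598 and 1.04 CPM in control females, so the value came from Vibrio females 1 and 3.

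Genes with a higher response in males included regulators of RNA, of signalling and of protein turnover. The 14 with the smallest p all had a positive response in males and a negative one in females, with interactions between 0.83 and 2.56, and 9 of them had no overlap in either sex. Eukaryotic translation initiation factor 4 gamma 1-like (LOC113823483), a scaffold that brings mRNA to the ribosome, had 28.8, 18.3 and 33.03 CPM in Vibrio males and 10.6 and 7.11 CPM in control males. In females it had 29.9, 23.9 and 27.2 CPM with Vibrio and 47.5, 27.1 and 52.2 CPM in controls. The males did not overlap, the females did through control female 2, and the control males were lower than every other library. The interaction was 2.24 (SE 0.46, DESeq2 adjusted p = 0.0097). The gene LOC113825716 of the same name, at 155 to 345 CPM, had an interaction of 0.31 (SE 0.40), with overlapping groups in both sexes.

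Inositol polyphosphate 5-phosphatase E-like (LOC113804514), an enzyme of phosphoinositide signalling, had 73.8, 51.6 and 59.1 CPM in Vibrio males and 44.5 and 52.6 CPM in control males, which overlapped. It had 51.3, 42.9 and 42.2 CPM in Vibrio females and 94.1, 95.4 and 77.3 CPM in control females, which did not. Most of the interaction of 1.31 (SE 0.28) was thus the response of females, -0.97, against 0.34 in males. Cleavage stimulation factor subunit 3-like (LOC113825629), which acts in cutting the 3' end of mRNA, was alike in this: 23.6, 25.5 and 27.8 CPM in Vibrio males, 21.9 and 24.2 CPM in control males, 19.2, 18.9 and 19.9 CPM in Vibrio females and 33.4, 34.4 and 33.2 CPM in control females. Its interaction was 0.95 (SE 0.22, DESeq2 adjusted p = 0.0042). The low-level gene of the same name, LOC113818390, had an interaction of 0.060 (SE 0.85).

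Aldehyde dehydrogenase family 16 member A1-like (LOC113803075) had 82.3, 81.6 and 72.5 CPM in Vibrio males and 57.8 and 61.9 CPM in control males. The females had 51.3, 52.8 and 67.01 CPM with Vibrio and 102, 90.5 and 80.7 CPM in controls. Neither sex overlapped, and the interaction was 1.07 (SE 0.25). The dual specificity kinase madd-3 (LOC113820902) had 376, 313 and 351 CPM in Vibrio males, 250.0 and 257 CPM in control males, 245, 226 and 273 CPM in Vibrio females and 487, 298 and 452 CPM in control females. It also had no overlap in either sex, with an interaction of 1.19 (SE 0.30).

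E3 ubiquitin ligases mark proteins for breakdown, and SMURF1 is known in animals for acting on the TGF-beta pathway. E3 ubiquitin-protein ligase SMURF1-like (LOC113811782) had 214, 184 and 196 CPM in Vibrio males, 155 and 167 CPM in control males, 157, 177 and 163 CPM in Vibrio females and 308, 221 and 256 CPM in control females, with no overlap and an interaction of 0.96 (SE 0.25). A second ligase, hyd-like (LOC113821978), had an interaction of 0.99 and no overlap in either sex, while the models LOC113821980 and LOC113821975 of the same name had 0.53 (SE 0.32) and -0.25 (SE 0.65). Serine/threonine-protein kinase 4-like (LOC113809965), the counterpart of the Hippo kinase, had 95.1, 96.5 and 94.1 CPM in Vibrio males, 79.3 and 80.8 CPM in control males, 72.05, 77.7 and 84.9 CPM in Vibrio females and 130.1, 95.3 and 125 CPM in control females. It did not overlap in either sex, its interaction was 0.83 (SE 0.24), and its namesake LOC113816519 had 0.65 (SE 0.31).

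**Figure D3:**
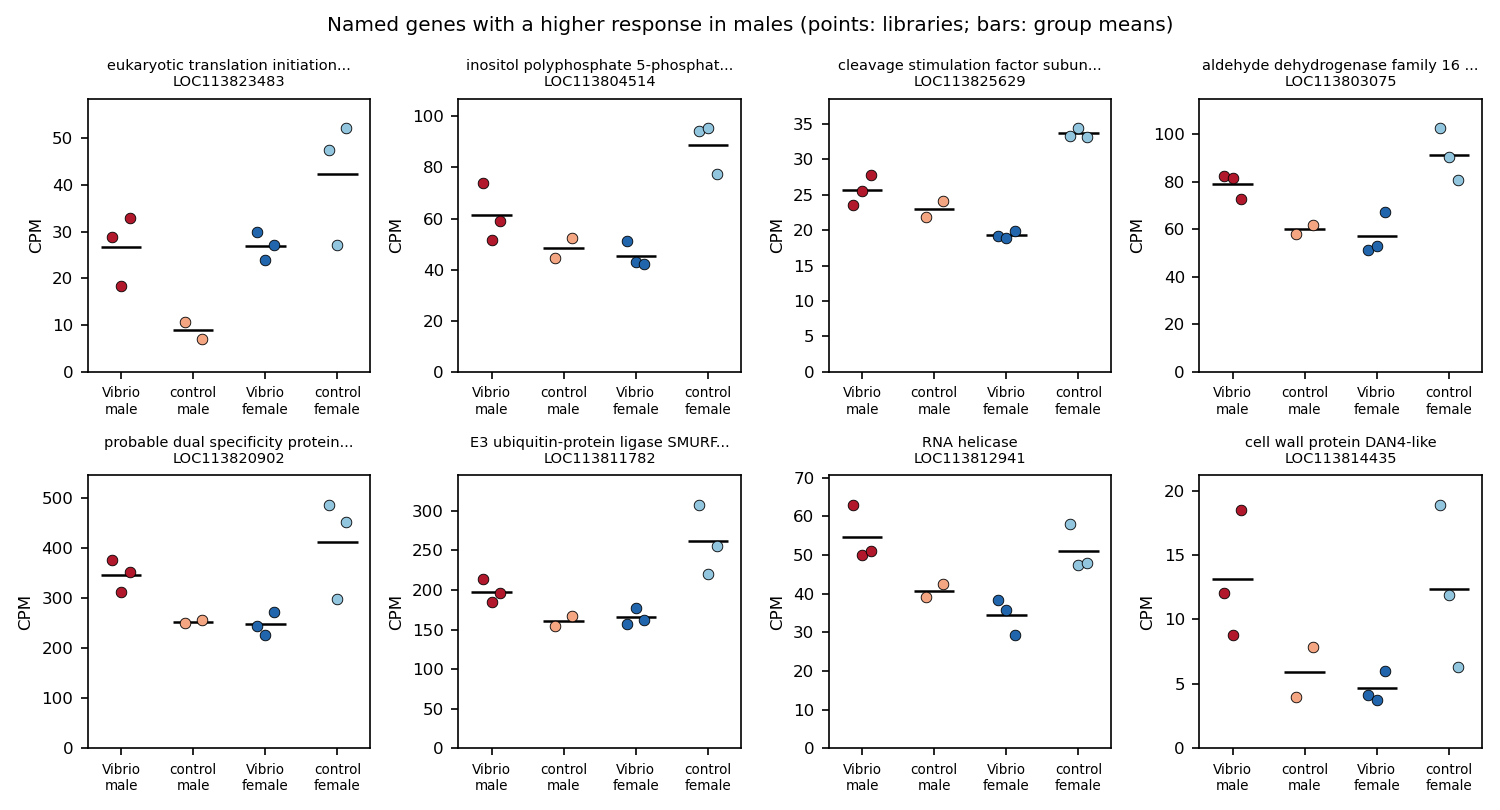
CPM in each library (points) and group means (bars) of 8 of the 14 named genes with a higher response in males. Aldehyde dehydrogenase family 16 member A1-like lies between 72.5 and 82.3 CPM in Vibrio males, above both control males, and between 51.3 and 67.0 CPM in Vibrio females, below the 3 control females.

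The other genes of this direction without overlap in either sex were an RNA helicase (LOC113812941, 0.99), the GATOR complex protein WDR59-like (LOC113815832, 0.85), which acts upstream of TOR signalling, the mitochondrial 4-aminobutyrate aminotransferase-like (LOC113828152, 1.62), which breaks down GABA, and the cell wall protein DAN4-like (LOC113814435, 2.56, SE 0.68), 1 of 14 genes of that name. With overlap there were a leucine-rich repeat and calponin-like protein (LOC113820355, 0.94), whose namesake LOC113820356 had -0.037 (SE 0.90), and the kainate receptor 2-like (LOC113823802, 1.36). The kainate receptor gene, 1 of 7 of that name, had 137, 88.8 and 144 CPM in Vibrio males, 119.8 and 90.3 CPM in control males, 93.7, 101 and 126 CPM in Vibrio females and 279, 167 and 255 CPM in control females, so that the high group was the control females.

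Gene groups were made from the gene names of the table, and each is described by its counts and its median beside those of all tested genes. The cytoplasmic and mitochondrial ribosomal proteins, translation factors, respiratory chain, proteasome and V-type proton ATPase had most of their members below 0. No list member passed the adjusted threshold, and the members of such groups are measured in the same libraries, so their counts are not independent observations.

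Of the 92 tested cytoplasmic ribosomal proteins, 87 had an interaction below 0, with a median of -0.77 (-0.55 in males, 0.27 in females), and 18 (19.6%) were at p under 0.05 in this direction, where all genes gave 2.92%. The median log2 CPM of the group was 9.59, 9.81 and 9.73 in Vibrio males, 10.63 and 9.66 in control males, 9.96, 10.25 and 9.56 in Vibrio females and 9.41, 9.72 and 9.83 in control females. Control male 2 was the highest library and control female 1 the lowest, and the groups overlapped in both sexes. Without control male 2 the median interaction was -0.21, and without control male 3 it was -1.19. The member with the smallest p, 60S ribosomal protein L7-like (LOC113806834), had 1044, 1572 and 1070.4 CPM in Vibrio males, 1793 and 1710.0 CPM in control males, 1786, 1555 and 1611 CPM in Vibrio females and 1189, 1294 and 1446 CPM in control females, without overlap, and an interaction of -0.85 (SE 0.29). The most abundant by FPKM, here and for the other groups, was 60S ribosomal protein L8-like (LOC113804304), with -1.05 (SE 0.45).

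Among 78 mitochondrial ribosomal proteins, 71 were below 0 with a median of -0.60, which was -0.28 without control male 2. Their member with the smallest p, 39S ribosomal protein L48 (LOC113800852), had an interaction of -1.19 (SE 0.39), whereas the most abundant, L53 (LOC113807883), had -0.023 (SE 0.23). The translation factors and tRNA synthetases had 67 of 80 below 0 and a median of -0.58 (-0.36 without control male 2). At p under 0.05, 9 members (11.25%, against 2.92% of all genes) had a lower response in males. The initiation factor 4 gamma 1-like gene given above was the 1 with a higher one (1.25%, against 2.68% of all genes). Elongation factor 1-alpha-like (LOC113820946), their most abundant member, differed little: 12839, 13574 and 14587 CPM in Vibrio males, 13911 and 13738 CPM in control males, 12925, 14158 and 17356 CPM in Vibrio females and 13892, 12068 and 18213 CPM in control females, with an interaction of -0.025 (SE 0.31).

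The respiratory chain and ATP synthase, which make ATP in mitochondria, had 64 of 68 members below 0 and a median interaction of -0.79 (-0.52 in males, 0.29 in females). At p under 0.05 were 11 (16.2%, against 2.92% of all genes), all in this direction: subunits of NADH dehydrogenase, of cytochrome c oxidase and of ATP synthase, led by the NADH dehydrogenase subunit B5-like gene (LOC113823162, -1.14, SE 0.41). The most abundant member, ATP synthase subunit beta (LOC113829387), had -0.065 (SE 0.31). Median log2 CPM was 6.02, 6.27 and 6.16 in Vibrio males, 6.79 and 6.23 in control males, 6.33, 6.65 and 5.79 in Vibrio females and 5.60, 6.26 and 6.13 in control females. Control male 2 and Vibrio female 2 were the highest libraries, the groups overlapped in both sexes, and the median was -0.43 without control male 2. The citrate cycle, which feeds the chain, had a median of -0.16 with 16 of 21 below 0, and -0.053 without control male 3. Its isocitrate dehydrogenase [NADP] (LOC113830388) had -0.81 (SE 0.34) and its malate dehydrogenase (LOC113811537) -0.68 (SE 0.34).

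In glycolysis 16 of 21 enzymes were below 0 with a median of -0.58. The wider glycolysis and gluconeogenesis pathway of the deposited annotation had -0.35, with 42 of 60 genes below 0. The values that follow are those of the 21 enzymes. At p under 0.05 were 3 (14.3%, against 2.92% of all genes): both pyruvate kinase genes and hexokinase type 2-like (LOC113805141, -1.19), which starts the pathway. The most abundant, fructose-bisphosphate aldolase-like (LOC113808337), had -0.51 (SE 0.42). Hexokinase was singled out after its values were seen, as were the other list members below that are neither the most abundant nor of the smallest p.

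The V-type proton ATPase was the group with the largest share at p under 0.05 in this direction among the lists of over 10 tested members, 8 of 18 (44.4%, against 2.92% of all genes). It had 17 members below 0 and a median of -0.79 (-0.43 in males, 0.41 in females). Besides the models of subunit B these were subunits d 1 (LOC113814572, -0.84), C (LOC113828445, -1.27), e 2 (LOC113814912, -0.84), D 1 (LOC113809213, -1.08), H (LOC113806145, -0.67) and a 16 kDa proteolipid (LOC113821104, -1.17). Of the 18 members, 3 had no overlap in either sex, as had 50 of all 14295 tested genes (0.35%) in this direction. Besides the models of subunit B this was subunit d 1, with 87.3, 98.2 and 65.2 CPM in Vibrio males, 108 and 112 CPM in control males, 106, 119.7 and 96.7 CPM in Vibrio females and 67.4, 84.8 and 84.6 CPM in control females. The most abundant member, another 16 kDa proteolipid (LOC113814946), had -0.22 (SE 0.24). The group's median log2 CPM was 6.52, 6.83 and 6.39 in Vibrio males, 7.31 and 6.85 in control males, 6.97, 7.09 and 6.60 in Vibrio females and 6.21, 6.69 and 6.72 in control females. It did not overlap between the males, and overlapped between the females through Vibrio female 3. Leaving out any 1 library kept the median between -1.02 and -0.65.

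**Figure D4:**
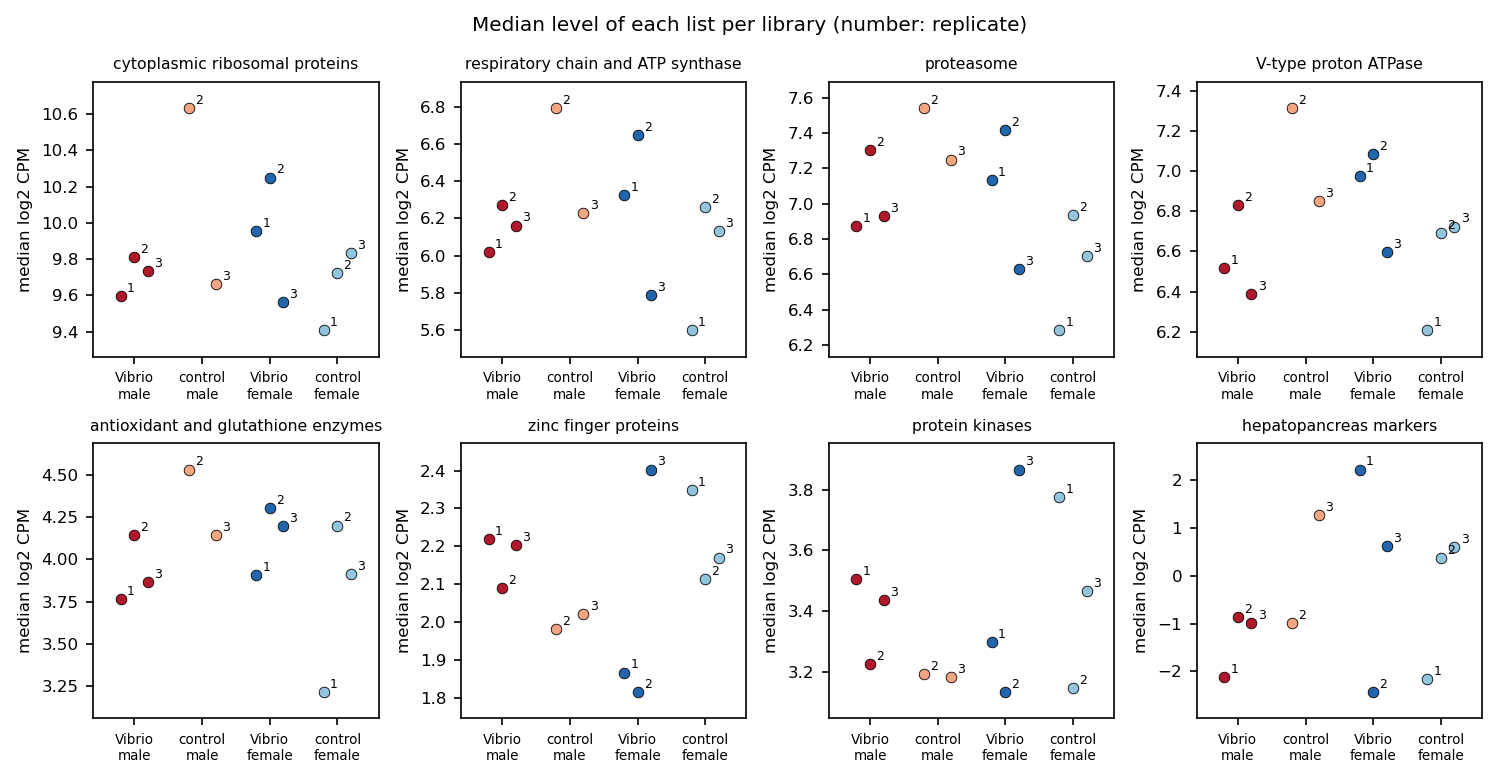
Median log2 CPM of the tested members of 8 gene groups in each library, with the replicate number beside each point. Control male 2 is the highest library for cytoplasmic ribosomal proteins (10.63), the respiratory chain, the proteasome and the V-type proton ATPase, and Vibrio female 3 is the highest for zinc finger proteins (2.40) and protein kinases (3.87).

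The proteasome, the main protease of the cytoplasm, had 44 of 49 subunits and regulators below 0, a median of -0.77, and 9 members (18.4%, against 2.92% of all genes) at p under 0.05. Proteasome subunit beta type-2-like (LOC113808915) had 109, 175 and 114 CPM in Vibrio males, 248 and 147 CPM in control males, 166, 227 and 121 CPM in Vibrio females and 75.8, 122 and 113 CPM in control females. Control male 2 and Vibrio female 2 were high, Vibrio male 2 and control female 2 crossed into the other group of their sex, and the interaction was -1.30 (SE 0.47). The most abundant subunit, beta type-4-like (LOC113819205), had -0.87 (SE 0.42). Chaperones had 54 of 67 below 0 and a median of -0.42, or -0.22 without Vibrio female 2. Heat shock protein beta-1-like (LOC113805750) had the smallest p among them, with 0.303, 0.722 and 0.406 CPM in Vibrio males, 0.347 and 7.22 CPM in control males, 2.23, 0.625 and 0.638 CPM in Vibrio females and 0.266, 1.02 and 0.599 CPM in control females, so that control male 3 stood alone. The abundant heat shock cognate 70 kDa protein (LOC113817372) had -0.45 (SE 0.47). ER folding and secretion had a median of -0.18 (-0.047 without Vibrio female 2), with 36 of 51 below 0. Its signal peptidase subunit SEC11A-like (LOC113805156) had -1.09 (SE 0.41) and its protein disulfide-isomerase-like (LOC113829528) -0.18 (SE 0.38).

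Antioxidant and glutathione enzymes, which remove the oxidants that immune cells release, had 47 of 60 below 0, a median of -0.69 and 8 members (13.3%, against 2.92% of all genes) at p under 0.05. Besides peroxiredoxin-6-like these included peroxiredoxin 1-like (LOC113814492, -1.79), mitochondrial manganese superoxide dismutase (LOC113824835, -0.93), ferritin-like (LOC113821440, -1.66) and ferritin subunit-like (LOC113830150, -1.02), the iron-storage proteins. The antioxidant median was -0.44 without control male 2. The dismutase had 10.9, 12.8 and 12.4 CPM in Vibrio males, 20.1 and 14.1 CPM in control males, 13.1, 15.9 and 18.3 CPM in Vibrio females and 9.27, 15.4 and 10.5 CPM in control females. The most abundant member, selenium-dependent glutathione peroxidase (LOC113819894), had an interaction of -0.90 (SE 0.44).

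Among the immune effectors the interactions went both ways. The antimicrobial peptides had a median of 0.15 (-0.060 without control female 3) with 5 of 12 below 0. At p under 0.05, 3 of them (25%) had a higher response in males, where all genes gave 2.68%. A lower one was seen in 1 (8.33%), where all genes gave 2.92%. A gene named putative antimicrobial peptide (LOC113801814) had 9.26, 7.35 and 4.46 CPM in Vibrio males, 5.296 and 5.09 CPM in control males, 2.04, 2.52 and 1.57 CPM in Vibrio females and 3.93, 4.29 and 4.39 CPM in control females. The females did not overlap, the males did, and the interaction was 1.48 (SE 0.47). Penaeidin-3a-like (LOC113808997), of a peptide family that acts against bacteria and fungi, had 13796, 13434 and 9374 CPM in Vibrio males, 8434 and 8841 CPM in control males, 5473, 7560.2 and 5666 CPM in Vibrio females and 8874, 6829 and 15292 CPM in control females. Its interaction was 1.23, that of a crustin-like protein (LOC113816267) 0.95, and that of an anti-lipopolysaccharide factor-like gene (LOC113800363), which binds bacterial endotoxin, -1.28. The last had 7484, 12728 and 7978 CPM in Vibrio males, 13516 and 8317 CPM in control males, 11921, 12414 and 7162 CPM in Vibrio females and 4049.6, 6052 and 4958 CPM in control females. The most abundant peptide gene, LOC113801825, also named putative antimicrobial peptide, had 0.27 (SE 0.48). The hemocyte markers, which hold penaeidins, crustins and transglutaminases too, had 13 of 16 above 0 and a median of 0.57, or 0.31 without control female 3. Their summed level was 35772 to 43340 CPM in Vibrio males, 30128 to 39456 CPM in control males, 30976 to 34573 CPM in Vibrio females and 31341 to 70701 CPM in control females, with overlap in both sexes, and its part in the values of the immune groups was not tested.

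Of the 11 clotting and transglutaminase genes 8 were above 0 with a median of 0.84 (0.14 without control female 3), and the most abundant, LOC113823945, had 0.92 (SE 0.66). The only member at p under 0.05 (9.09%, against 2.92% of all genes) had a lower response in males. It was LOC113826241, given above (-4.85). The prophenoloxidase cascade with its proteases and inhibitors had a median of 0.16 over 37 genes (0.021 without control female 3) and none at p under 0.05. Its phenoloxidase-activating factor 2-like gene (LOC113802496) had 1.59 (SE 0.73), and the kunitz-type inhibitor HCRG1-like (LOC113806311) -2.29 (SE 1.22). The 4 tested lysozymes, which cut bacterial cell walls, split 2 against 2. LOC113802295 had -0.31 (SE 0.82), and LOC113802306 was at 0 in both control males and at most 2.19 CPM in any library.

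In the Toll, IMD and JAK-STAT pathways 12 of 22 genes were above 0, none had a p under 0.05 in either direction, and the median was 0.14 (-0.045 without Vibrio female 2). TNF receptor-associated factor 6-like (LOC113823573), an adaptor of these pathways, had -0.56 (SE 0.28), and spaetzle (LOC113810575), the ligand of Toll, -0.46 (SE 0.54). Cell adhesion and phagocytosis genes had a median of 0.11, which was -0.030 in DESeq2 and, with 1 library left out, between -0.050 (without Vibrio female 3) and 0.31 (without control male 3). Integrin beta-PS-like (LOC113804348), a cell adhesion receptor, was a case of equal sign and unequal size: it had 13.2, 7.49 and 10.8 CPM in Vibrio males, 3.33 and 4.43 CPM in control males, 7.68, 7.31 and 10.5 CPM in Vibrio females and 5.55, 10.6 and 6.37 CPM in control females. Its response was 1.43 in males, without overlap, and 0.18 in females, with overlap (interaction 1.26, SE 0.48). The integrin beta subunit LOC113819144, the most abundant, had 0.48 (SE 0.37).

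Astakine (LOC113822052), a cytokine that promotes the making of hemocytes in crustaceans, was a second case of equal sign, with negative responses in both sexes, -0.52 in males and -3.10 in females. It had 203, 159 and 94.6 CPM in Vibrio males, 218 and 217 CPM in control males, 88.4, 181 and 320.0 CPM in Vibrio females and 2023, 163 and 2859 CPM in control females. Control females 1 and 3 stood far above the other 9 libraries, and the interaction was 2.58 (SE 1.21). The nuclear hormone receptor FTZ-F1-like (LOC113828208), which acts in ecdysone signalling in insects, was high in the same libraries, with 29.6, 21.4 and 14.3 CPM in Vibrio males, 26.7 and 19.02 CPM in control males, 31.3, 18.96 and 12.9 CPM in Vibrio females and 264, 28.3 and 99.2 CPM in control females and an interaction of 2.56 (SE 1.00). The ecdysone and nuclear receptor group had 24 of 32 members above 0, a median of 0.39 (0.23 without control female 1), and 0.47 (SE 0.41) in its most abundant member, a broad-complex gene (LOC113804772). Crustacean hematopoietic factor-like protein (LOC113802754) had 0.24 (SE 0.46).

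Recognition proteins, lectins and hepatopancreas markers had the lowest medians of all groups. The pattern recognition proteins had 11 of 12 below 0 and a median of -1.75 (-0.12 without control male 3), but none at p under 0.05. Beta-1,3-glucan-binding protein (LOC113807222), which senses fungal and bacterial sugars, had 14.3, 6.14 and 15.1 CPM in Vibrio males, 7.76 and 24.9 CPM in control males, 105, 3.56 and 64.1 CPM in Vibrio females and 9.78, 4.99 and 75.6 CPM in control females. It was high in Vibrio females 1 and 3 and control female 3, and its interaction was -1.40 (SE 1.72), against -2.89 (SE 1.69) in a like gene, LOC113813393. The lectins had 31 of 42 below 0 and a median of -1.13, which without Vibrio female 1 was 0.43. Techylectin-5A-like (LOC113803831) had 1.25, 0.839 and 2.76 CPM in Vibrio males, 0.897 and 1.96 CPM in control males, 37.8, 18.04 and 0.601 CPM in Vibrio females and 1.903, 1.24 and 1.598 CPM in control females, so that Vibrio females 1 and 2 stood apart. The most abundant lectin, nattectin-like (LOC113811918), had -1.50 (SE 0.74).

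The hepatopancreas markers themselves had a median interaction of -2.44, with 88 of 105 below 0, and -0.53 without control male 3. Their median log2 CPM was -2.12, -0.87 and -0.99 in Vibrio males, -0.99 and 1.27 in control males, 2.23, -2.42 and 0.63 in Vibrio females and -2.15, 0.38 and 0.61 in control females, so that Vibrio female 1 and control male 3 were the highest libraries. With the markers' level as a covariate the median was -0.029 in pattern recognition proteins and 0.94 in lectins, and without the 3 libraries highest in the markers 0.023 and 0.44. The same values were -0.75 and -0.92 for the V-type proton ATPase, -0.81 and -1.07 for the respiratory chain, -0.79 and -1.05 for the proteasome and -0.80 and -1.26 for cytoplasmic ribosomal proteins. They were 0.044 and -0.23 for lysosome and cathepsin genes, -0.079 and 0.085 for histones and -0.24 and 0.013 for DNA replication and cell cycle genes. The 3 libraries left out, the highest by mean log2 CPM, were Vibrio female 1, control male 3 and control female 3. Control male 2 was then the only control male. It was the highest library for the V-type proton ATPase, the respiratory chain, the proteasome and cytoplasmic ribosomal proteins. Without control male 3 alone the median of cytoplasmic ribosomal proteins was -1.19. These refits were chosen after seeing the data, and the part of hepatopancreas RNA in any of the groups was not tested further.

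**Figure D5:**
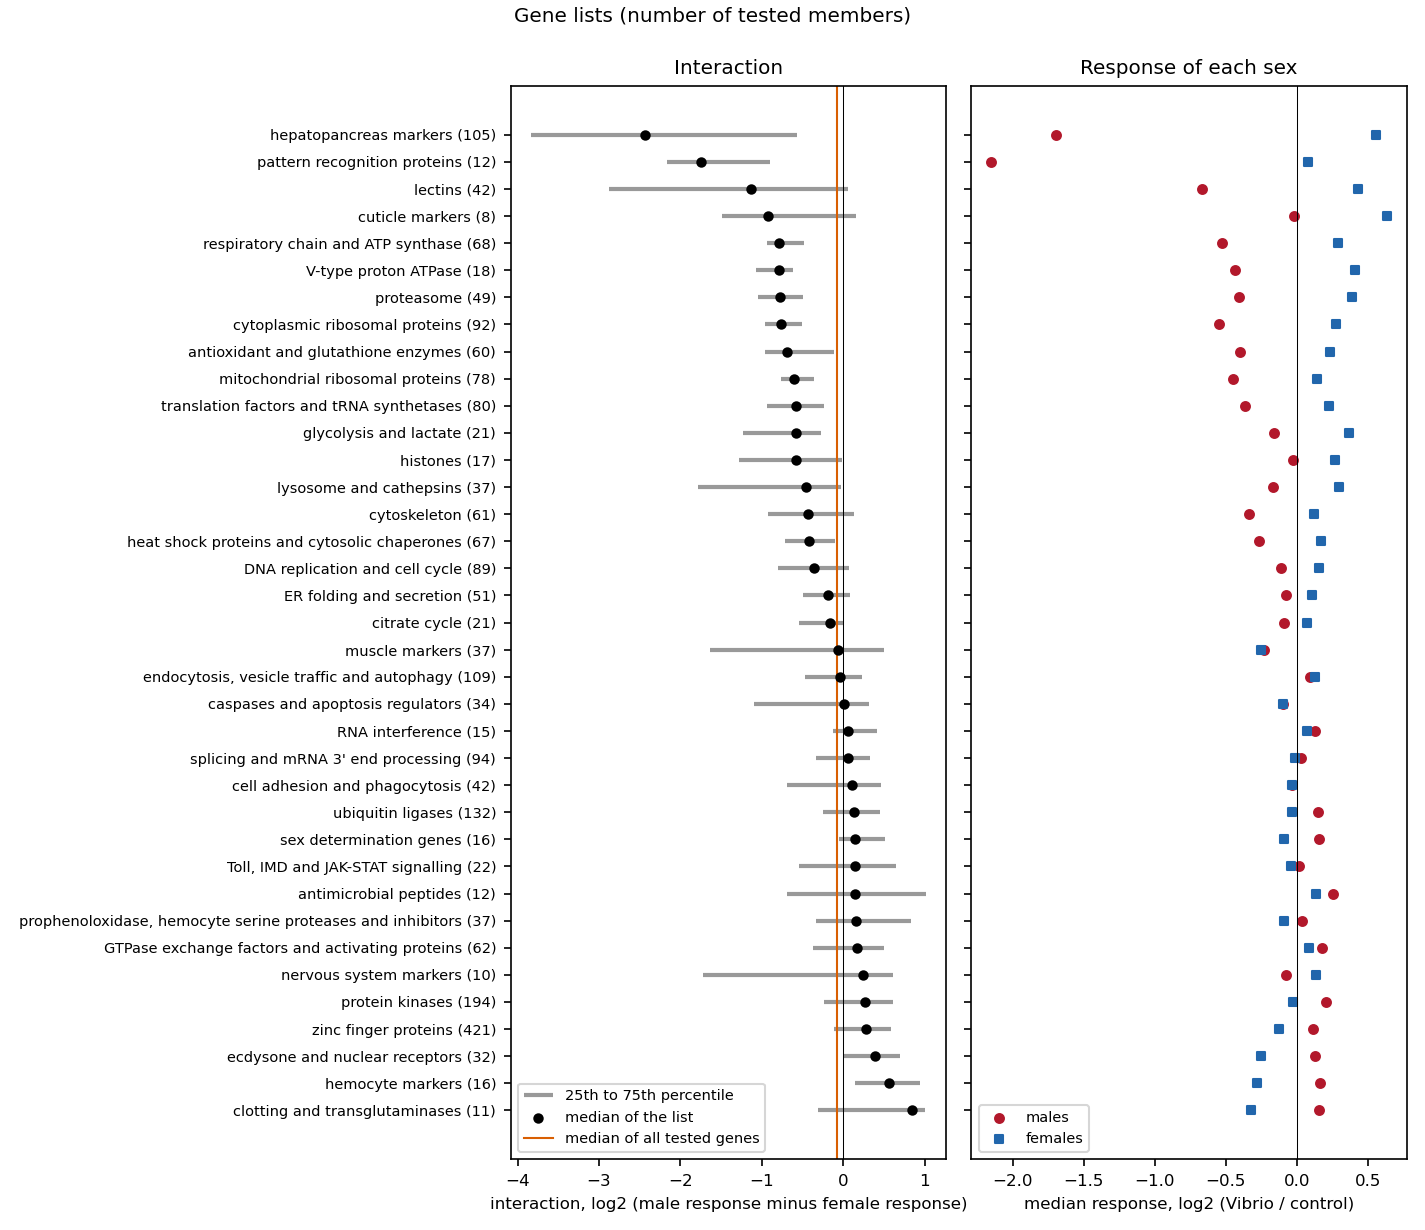
Left, median interaction of each gene group (points) with the 25th to 75th percentile of its tested members (bars) and the median of all tested genes (orange line, -0.076). Right, the median response of males and of females; the respiratory chain has -0.52 in males and 0.29 in females, and the zinc finger proteins 0.12 and -0.13.

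The splicing and 3' end processing genes lay near the median of all genes, at 0.059, with 44 of 94 below 0. Their median was -0.055 without control female 2 and -0.0080 in limma-voom, and the spliceosome of the deposited pathway annotation had -0.12 with 68 of 125 below 0. Of the list, 7 of 94 (7.45%) were at p under 0.05 with a higher response in males, where all genes gave 2.68%. A lower one was seen in 1 (1.06%), where all genes gave 2.92%. Serine/arginine-rich splicing factor 5-like (LOC113811523), which binds splicing enhancers, had 309.6, 312 and 278 CPM in Vibrio males, 213 and 237 CPM in control males, 224, 201 and 247 CPM in Vibrio females and 333, 262 and 257 CPM in control females, without overlap in either sex and with an interaction of 0.76. Pre-mRNA-processing factor 39-like (LOC113812188, 0.65) did not overlap either, while the U2 ribonucleoprotein A' gene (LOC113811314, -1.23) went the other way and splicing factor 7-like (LOC113802307), the most abundant, had 0.00059 (SE 0.28).

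Further groups were drawn up after gene-level values had been seen. Of 421 zinc finger proteins 292 were above 0 with a median of 0.28, of 194 protein kinases 127 with a median of 0.27, of 62 GTPase exchange factors and activating proteins 42 with a median of 0.17, and of 132 ubiquitin ligases 81 with a median of 0.13. In 7 of the 194 kinases Vibrio males were above and Vibrio females below their controls without overlap, as in 119 of all 14295 tested genes (0.832%). At p under 0.05, 16 kinases (8.25%) had a higher response in males, against 2.68% of all genes. A lower one was seen in 1 (0.515%), against 2.92% of all genes. They included kinases of the MAP kinase cascades, which carry stress and immune signals: p38 (LOC113815719, 0.59), mitogen-activated protein kinase 1-like (LOC113801198, 0.53) and the kinase kinase kinases 7-like (LOC113811300, 0.65) and 15-like (LOC113816913, 0.93). The p38 gene had 127, 134 and 130.1 CPM in Vibrio males, 117 and 126 CPM in control males, 99.1, 125 and 99.5 CPM in Vibrio females and 163, 163 and 128 CPM in control females, without overlap but by a narrow margin in both sexes. Tyrosine-protein kinase Src42A-like (LOC113806269, -1.04) was the kinase with a lower response in males. The median log2 CPM of the kinases was 3.51, 3.22 and 3.44 in Vibrio males, 3.19 and 3.18 in control males, 3.30, 3.13 and 3.87 in Vibrio females and 3.78, 3.14 and 3.47 in control females, so the males did not overlap and the females did, with Vibrio female 3 highest. Without that library the median interaction of the kinases was 0.64, and without Vibrio female 2 it was 0.084. The zinc finger proteins had 0.18 without control female 1. The ubiquitin ligases had 0.034 without Vibrio female 1, and the GTPase regulators 0.025 without control female 1.

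The remaining groups are described more briefly. Endocytosis, vesicle traffic and autophagy had a median of -0.042 (0.065 in limma on log2(FPKM + 1)), with 1.00 (SE 0.33) in sorting nexin-14-like (LOC113800944) and -0.50 (SE 0.51) in the GABA receptor-associated protein (LOC113811689), an autophagy protein. Caspases and apoptosis regulators had 0.016 (-0.050 with RLE size factors), with -0.33 (SE 0.30) in Bax inhibitor 1 (LOC113823630) and -5.48 (SE 2.27) in an IAP repeat gene (LOC113800957) that was high in Vibrio female 1 alone. Lysosome genes and cathepsins had -0.46 (-0.21 without Vibrio female 1 and 0.044 with the hepatopancreas covariate), with -0.30 (SE 0.30) in the abundant thiol reductase LOC113803440. At p under 0.05, 3 of the 37 (8.11%, against 2.92% of all genes) had a lower response in males. A higher one was seen in 1 (2.70%, against 2.68% of all genes). The cytoskeleton had -0.43, with -0.40 (SE 0.60) in actin clone 403 (LOC113813020). At p under 0.05 were 4 of its 61 members (6.56%, against 2.92% of all genes), all with a lower response in males.

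DNA replication and cell cycle genes had a median of -0.36 (-0.19 without control male 3 and 0.013 without the 3 libraries highest in hepatopancreas markers), with 0.48 (SE 0.25) in cyclin-dependent kinase 2-like (LOC113822976). Histones had -0.57, or -0.092 without Vibrio female 1 and 0.085 without those 3 libraries, with -1.24 (SE 0.47) in histone H2A-like (LOC113829109) and -0.67 (SE 0.39) in histone H3.3-like (LOC113805443). RNA interference had 0.056 (-0.033 without Vibrio female 1), with -0.029 (SE 0.24) in tarbp2-like (LOC113817647). At p under 0.05 were 2 of its 15 members (13.3%, against 2.92% of all genes), with a lower response in males. Both were argonaute genes without a count in most libraries. The sex determination genes, of interest here because the contrast is between the sexes, had 11 of 16 above 0 and a median of 0.14 (0.52 without control male 3). Among them fruitless-like (LOC113803434) had 0.68 (SE 0.29) and Sex-lethal (LOC113803286) 0.056 (SE 0.34).

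By the pathway annotation in the deposited table, 80 of the 99 pathways with at least 15 tested genes had a median below 0. By gene ontology, a second annotation of gene functions, it was 179 of the 347 terms with at least 30 tested genes. Of the single tested genes 54.1% lay below 0. Chosen after their medians were seen, the lower pathways included neuroactive ligand-receptor interaction, the lowest (-1.35, 22 of 30 below 0), the proteasome (-0.81, 40 of 41 below 0), oxidative phosphorylation (-0.77, 96 of 102), the ribosome (-0.74, 128 of 134) and glutathione metabolism (-0.73, 44 of 59). RNA polymerase (-0.62, 19 of 23) and the SNARE proteins of vesicle fusion (-0.52, 18 of 19) were not among the groups above. Ubiquitin mediated proteolysis had -0.18 with 65 of 100 below 0, where the median of the ubiquitin ligase group was above 0. The highest pathway was mucin type O-glycan biosynthesis (0.48, 5 of 15 below 0), and the higher ones also included the phosphatidylinositol signaling system (0.29), Notch (0.26) and Wnt signaling (0.20).

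A last set of genes was absent from whole groups, and there the fitted interaction depends on how zeros are treated, so bounds are given against a limit of 3 counts per library over the group. A zinc finger protein gene (LOC113814387) had 3.403, 3.18 and 4.68 CPM in Vibrio males, 3.07 and 0 CPM in control males, 0, 0 and 0 CPM in Vibrio females and 4.87, 3.92 and 3.35 CPM in control females. It was at least 69.00-fold lower in Vibrio females than in control females, while the males had it at a like level except for a 0 in control male 3 (DESeq2 adjusted p = 0.00049). A second one (LOC113820390) differed in males, at least 62.7-fold higher in Vibrio males (4.03, 3.296 and 6.42 CPM) than in control males, which had none, with 2.43, 3.104 and 3.75 CPM in Vibrio females and 4.11, 4.29 and 0 CPM in control females. Replication factor C subunit 1 (LOC113810150), which loads the DNA clamp and was at 0 in Vibrio male 2 as well, had 1.44, 0 and 1.47 CPM in Vibrio males, 0 and 0 in control males, 0, 0 and 0 in Vibrio females and 1.25, 0.946 and 0.377 CPM in control females, at least 13.3-fold higher by the group mean with Vibrio in males and at least 14.6-fold lower with Vibrio in females. The short-chain dehydrogenase SDR42E1-like gene (LOC113808718) showed the same order at no more than 0.501 CPM, at least 2.28-fold higher in males and at least 5.87-fold lower in females.

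In the other direction, balbiani ring protein 3-like (LOC113816928) was at 0 in all Vibrio males and had 2.32 and 21.4 CPM in control males, mostly in control male 3, against 1.88, 1.23 and 0 CPM in Vibrio females and 0.143, 0.148 and 0.111 CPM in control females. Chondroitin proteoglycan 2-like (LOC113815782) had 0.0378, 0 and 0 CPM in Vibrio males, 1.24 and 7.03 CPM in control males, 1.21, 0.167 and 0 CPM in Vibrio females and 0, 0 and 0 CPM in control females, and the control females had none of peritrophin-1-like (LOC113811921) either, with 0, 0 and 0 CPM in Vibrio males, 1.71 and 3.03 CPM in control males and 0.0784, 0.229 and 0 CPM in Vibrio females. The control males carried most of the counts of both. Argonaute-3-like (LOC113817401) had counts in both control males (0.405 and 6.14 CPM) and in Vibrio female 3 (3.77 CPM) and in none of the other 8 libraries. DESeq2 also called serine/arginine repetitive matrix protein 2-like (LOC113809515), 1 of 32 genes of that name, at 0 in all Vibrio females, and an N-acetylated-alpha-linked acidic dipeptidase (LOC113808167), at 0 in all Vibrio males and at most 2.64 CPM elsewhere. The thiol reductase LOC113811873 was at 0 in the Vibrio males and at most 3.19 CPM elsewhere.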

How the data were processed

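RNA of hemocytes was sequenced in 11 libraries of 4 groups. The authors deposited 1 table with a read count and an FPKM value per gene and library, with gene names and pathway annotation. Reads were trimmed with cutadapt 1.9 and checked with FastQC, per the submitters' processing notes; the aligner, counter, genome build, annotation version and use of strand have no mention in the sources used here, so reads of overlapping genes or of near-identical copies may have been shared or split.

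From the deposited counts, edgeR 4.0.16 (R 4.3.3) fitted the 4 group means with TMM scaling and its robust quasi-likelihood test. Of 18803 genes, filterByExpr kept 14295 and left out 4508. The interaction contrast was tested on all of them with Benjamini-Hochberg adjustment, the SE is the absolute log2 value over the square root of F, and CPM are scaled with TMM. DESeq2 1.42.0, limma-voom (limma 3.58.1) and limma on the deposited FPKM as log2(FPKM + 1) were alternatives, as were other scalings, filters and leaving out each library. Fits were tested on simulated data with 6 random seeds: with the first seed the largest simulated increase was overestimated beyond the limit set, and the limit was then applied to the mean over the seeds, which passed.

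Gene groups were taken from gene names. Named genes are the 14 of smallest p in each direction (descriptive name, 5 FPKM in some group, counts in 9 libraries) with their namesakes, the member of smallest p and of highest FPKM in each group, genes that DESeq2 called, and 10 non-overlapping genes. The members, groups and rules were chosen with earlier results of these data known; the zinc finger, kinase, GTPase regulator and ubiquitin ligase groups were chosen after gene values were seen. Bounds against a count of 0 use 3 counts per library and cover counting error only. They take each count as separate. Of the counts from 1 to 20, 61.3% to 68.2% were even in each library. Whether 1 fragment could add more than 1 count was not tested.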

Additional observations from a re-analysis of the deposited data

Results flagged for a closer look

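In 10 named genes the libraries of Vibrio and control shrimp did not overlap in either sex and lay in opposite directions in males and in females. They are the 10 with the smallest p of the 87 such genes with a descriptive name and 5 FPKM in some group, so they were chosen by the same values that are given here. The difference between the sexes was itself tested, and in edgeR every one had an adjusted p of 0.74.

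A lower response in males was found in pyruvate kinase-like (LOC113828822, interaction -1.84), V-type proton ATPase subunit B (LOC113821152, -1.59), its partial model (LOC113822054, -1.39), failed axon connections-like (LOC113808479, -1.88), venom protease-like (LOC113821989, -2.24), the actin-related protein 2/3 subunit (LOC113826245, -1.07) and peroxiredoxin-6-like (LOC113823673, -1.10). A higher response in males was found in aldehyde dehydrogenase family 16 member A1-like (LOC113803075, 1.07), in the kinase madd-3 (LOC113820902, 1.19) and in a zinc finger protein gene (LOC113814387, fitted value 11.94). The value of LOC113814387 depends on how zeros are treated, because the gene had no count in 3 Vibrio females and in control male 3. In DESeq2 the adjusted p was 0.0034 for pyruvate kinase-like, 0.0075 for subunit B, 0.021 for the aldehyde dehydrogenase and 0.00049 for LOC113814387, and it was above 0.05 for the actin-related protein 2/3 subunit (0.053), peroxiredoxin-6-like (0.059) and madd-3 (0.098).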

How the results depend on the processing

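At the depth of these libraries the limit of 3 counts per library came to 0.0577 CPM in Vibrio males and 0.0731 CPM in control males, so genes at 0 were not detectable below that level. The edgeR count of called genes was 0 with RLE size factors, with upper-quartile scaling, with no filter on low counts and with a minimum of 1 CPM in 8 libraries. Limma-voom and limma on log2(FPKM + 1), which use another test, also called 0, and DESeq2 called 27. Without any 1 library the edgeR count was 0 to 1: 1 gene each without Vibrio female 1 (LOC113808903), Vibrio female 3 (LOC113823782), control female 3 (LOC113820390), control male 2 (LOC113814387) and control male 3 (LOC113819004). Genes at p under 0.05 numbered 1701 in limma-voom and 381 to 2306 without 1 library, with 2306 without Vibrio female 3, 1373 without control female 2, 381 without control female 1, 408 without Vibrio male 1 and 486 without Vibrio male 3. The share of opposite signs was 49.7% to 76.9% without 1 library. Relative to -0.076, the median of all genes was 0.062 in limma on log2(FPKM + 1), on 11106 genes, and -0.17 in DESeq2.

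With replicate numbers as a block (a replicate block), edgeR called 0 genes and had 765 at p under 0.05; over 15 same-number pairs the correlation of deviations from the group means was -0.57 to 0.50 and over 0.1 in 5, so the numbers were not taken to pair the samples.

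The median interaction without 1 library was 0.034 to 0.44 in ubiquitin ligases, 0.084 to 0.64 in protein kinases, -2.51 to -0.12 in pattern recognition proteins, -1.10 to -0.43 in respiratory chain and ATP synthase, -1.19 to -0.21 in cytoplasmic ribosomal proteins, -0.85 to -0.28 in mitochondrial ribosomal proteins, -0.49 to -0.19 in DNA replication and cell cycle, -0.37 to -0.053 in citrate cycle, -0.14 to 0.12 in endocytosis, vesicle traffic and autophagy genes, 0.11 to 0.52 in sex determination genes, -0.045 to 0.30 in Toll, IMD and JAK-STAT signalling genes, 0.23 to 0.76 in ecdysone and nuclear receptors, -3.29 to -0.53 in hepatopancreas markers and -1.53 to 1.17 in cuticle markers. Ubiquitin ligases had 0.32 in limma-voom, DNA replication and cell cycle genes -0.13 in limma on log2(FPKM + 1), and the cuticle markers -3.22 with the minimum of 1 CPM in 8 libraries. The refits on hepatopancreas markers were chosen after seeing the data. With the markers as a covariate the medians were -0.029 in pattern recognition proteins, 0.94 in lectins, 0.044 in lysosome and cathepsin genes, 0.21 in hepatopancreas markers and 0.57 in cuticle markers. Without the 3 libraries highest in the markers they were 0.023 in pattern recognition proteins, -1.26 in cytoplasmic ribosomal proteins, 0.085 in histones, 0.013 in DNA replication and cell cycle genes, 0.45 in sex determination genes, 0.43 in Toll, IMD and JAK-STAT signalling, 0.74 in the prophenoloxidase group, 0.24 in hepatopancreas markers and 1.09 in cuticle markers. In that refit control male 2 was the only control male.

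Of 100 named tested genes, 79 kept the sign of their interaction in all 21 refits. Many of the 100 were chosen by a small p in these same libraries, which the refits use again. The count is therefore a description and no test, and the share over all tested genes was not worked out. The sign turned in limma-voom for LOC113817647 (0.083), LOC113802295 (0.27), LOC113803286 (-0.061), LOC113802307 (-0.12), LOC113820946 (0.19), LOC113818390 (-0.19), LOC113821975 (0.26) and LOC113820356 (0.76), and in limma on log2(FPKM + 1) for LOC113817647 (0.078), LOC113802295 (0.092), LOC113807883 (0.070), LOC113829387 (0.041), LOC113820946 (0.061), LOC113821975 (0.045) and LOC113820356 (0.25). It turned under the replicate block for LOC113817647 (0.034), LOC113802295 (0.035), LOC113829387 (0.024) and LOC113820946 (0.022). RLE size factors turned LOC113803286 (-0.012), LOC113802307 (-0.061) and LOC113818390 (-0.0072), DESeq2 turned LOC113803286 (-0.012), LOC113802307 (-0.061) and LOC113818390 (-0.0080), no filter on low counts turned LOC113802307 (-0.011) and the minimum of 1 CPM turned LOC113802307 (-0.019). The covariate turned LOC113810575 (0.038), LOC113807222 (1.00) and LOC113808167 (2.77), and leaving out the 3 libraries turned LOC113810575 (0.71), LOC113801825 (-0.15), LOC113823945 (-0.022), LOC113802754 (-0.50), LOC113813020 (0.18), LOC113808337 (0.0078), LOC113805750 (0.48), LOC113817372 (0.47), LOC113807883 (0.022) and LOC113829387 (0.16). Leaving out 1 library turned LOC113817647 (-0.17 to 0.11), LOC113810575 (-0.98 to 0.35), LOC113802754 (-0.14 to 0.74), LOC113813020 (-0.84 to 0.24), LOC113811689 (-0.98 to 0.16), LOC113817372 (-0.96 to 0.33), LOC113802295 (-0.73 to 0.68), LOC113807883 (-0.11 to 0.073), LOC113829387 (-0.30 to 0.20), LOC113803286 (-0.17 to 0.21), LOC113802307 (-0.14 to 0.14), LOC113820946 (-0.21 to 0.10), LOC113808167 (-9.75 to 0.59), LOC113818390 (-0.29 to 0.46), LOC113821975 (-0.54 to 0.59) and LOC113820356 (-0.51 to 0.34). The cause of these changes was not tested.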
